A study of Equus caballus with 12 samples.

Results

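TRAF6 (ENSECAG00000021091), COMMD10 (ENSECAG00000008378), DOCK8 (ENSECAG00000011917) and BFAR (ENSECAG00000016920) are 4 immune and survival signalling genes among the 11425 genes measured in horse oocytes. They were selected on their measured values in these same samples, as genes that the study called differentially expressed (DE) in more than a single comparison. All 3 comparisons between groups were used in that choice, so the values of these genes are described here without a test.

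Messenger RNA was sequenced from pools of horse oocytes recovered from slaughterhouse ovaries, averaging 23 oocytes per pool. Fresh oocytes (FR, 5 samples) were matured in vitro and never vitrified. VMAT oocytes (3 samples) were matured in vitro, denuded and then vitrified and warmed. VIM oocytes (4 samples, named VGV in the labels) were vitrified while immature with their corona radiata, the inner layer of cumulus cells, and were warmed and then matured in vitro. Vitrification is ice-free freezing in a high concentration of cryoprotectants. Oocytes of all 3 groups therefore shared in vitro maturation with follicle-stimulating and luteinizing hormone, removal of the cumulus cells and a visible polar body. The sources used here do not give the age of the mares or how many of them contributed to a pool, and they do not say that pools came from separate animals. Spreads between samples, and every p-value, cover these pools only.

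TRAF6 is a ubiquitin ligase that relays signals from Toll-like and interleukin-1 receptors. Together with the enzymes UBE2N and UBE2V1 it builds K63-linked ubiquitin chains, which switch on the kinases upstream of NF-κB and of MAP kinases. COMMD10 belongs to the COMM domain family, whose members sit in the Commander complex, recycle membrane proteins from endosomes and can restrain NF-κB. DOCK8 is an exchange factor that loads CDC42 with GTP and steers the actin cytoskeleton, a role best known from leukocytes. BFAR is a ubiquitin ligase anchored in the endoplasmic reticulum membrane that binds BCL2 family proteins and protects cells from apoptosis. A full-grown oocyte makes almost no new RNA, so its messenger RNA is a store that is translated, adenylated or degraded.

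Reads counted on genes numbered 1636620 to 12166950 per library, and the lowest and the highest totals were both in VMAT (replicates 1 and 2). The normalized count is the number of reads of a gene divided by a size factor per sample, which ran from 0.321 to 7.98. A floor of 3 reads thus corresponded to a normalized count of 0.376 to 9.34, depending on the sample. Such floors cover counting error only. Oocyte identity was checked with the 7 of 13 marker genes that could be identified by name. Their summed normalized count was 3120 to 5681 in VIM, 4147 to 8497 in VMAT and 4784 to 6370 in FR. Among these markers ZAR1, a maternal-effect gene named here after its values were seen, was at 3.11 to 33.4 in VMAT, 4.82 to 337 in VIM and 115 to 252 in FR. With limma its log2 fold change in VMAT vs. FR was -3.83 (SE 1.93), at an adjusted p of 0.950. The other identified oocyte markers ran from -1.23 (KPNA7) to 0.86 (BMP15) there, with GDF9 also above 0 at 0.73. ZAR1 alone therefore does not stand for the oocyte markers. Of 16 cumulus and granulosa cell markers only HAS2, the hyaluronan synthase of the expanding cumulus, was identified. It had a normalized count of 641 to 2144 in VIM, 254 to 1755 in VMAT and 462 to 1239 in FR, and its part in the results below was not tested. None of 12 leukocyte and 3 erythrocyte markers was identified by name, so these cells were not analysed here.

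TRAF6 was either almost absent or abundant, and abundant libraries occurred in VIM and FR. The normalized counts in VIM were 3.68, 1022, 329 and 1.96 in replicates 1 to 4. In VMAT they were 6.22, 2.38 and 4.72 in replicates 1 to 3. In FR they were 5.39, 746, 1173, 4.54 and 3.58 in replicates 1 to 5. Thus 2 of 4 VIM libraries, 0 of 3 VMAT libraries and 2 of 5 FR libraries were high, and no pair of groups was separated. The low libraries held 2 to 19 reads of TRAF6, and the high ones held 273 to 2096. The mean was 387 ± 544 in FR (SD, n = 5), 339 ± 480.5 in VIM (SD, n = 4) and 4.44 ± 1.94 in VMAT (SD, n = 3). The FR mean was 87.1 times that of VMAT, while the medians were 5.39 in FR and 4.72 in VMAT. That difference therefore lay in FR replicates 2 and 3. In oocyte pools, fewer oocytes that hold a transcript and less of it per oocyte cannot be told apart. Libraries of the same group had a Pearson's r of log2 values over genes of only 0.569 to 0.609 (19 pairs). The part of library preparation in the low values was not tested. In the RefSeq annotation of the horse assembly TB-T2T, TRAF6 overlaps PRR5L, and whether strand was used in counting is not given in the sources used here.

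COMMD10 was high in 4 FR libraries and low in every vitrified library. In VIM its normalized counts were 0.614, 4.89, 4.82 and 2.93 in replicates 1 to 4. In VMAT they were 3.11, 0.877 and 3.54 in replicates 1 to 3. In FR they were 6.47, 343, 247, 839 and 410.2 in replicates 1 to 5. All 7 vitrified libraries lay below all 5 FR libraries, although FR replicate 1, with 6 reads, was close to the vitrified ones. The vitrified libraries held 1 to 7 reads each, against 300 to 1663 in the other 4 FR libraries. The mean was 369 ± 304 in FR (SD, n = 5), 3.31 ± 2.02 in VIM (SD, n = 4) and 2.51 ± 1.43 in VMAT (SD, n = 3). The FR mean was 111 times that of VIM and 147 times that of VMAT. VIM and VMAT overlapped at this low level.

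DOCK8 was low in every VMAT library and mixed in the other groups. Its normalized counts in VIM were 99.45, 4.89, 759 and 246 in replicates 1 to 4. In VMAT they were 3.11, 3.88 and 1.18 in replicates 1 to 3. In FR they were 2.16, 4.58, 2.24, 198 and 1049 in replicates 1 to 5. High libraries were 3 of 4 in VIM, 0 of 3 in VMAT and 2 of 5 in FR. All VIM libraries lay above all VMAT libraries, but VIM replicate 2 did so by 4.89 against 3.88, with 3 reads. VMAT replicate 2 was the most deeply sequenced library, and its 31 reads made up a normalized count of 3.88. The mean was 251 ± 454 in FR (SD, n = 5), 278 ± 336 in VIM (SD, n = 4) and 2.72 ± 1.39 in VMAT (SD, n = 3). The FR mean was 92.2 times that of VMAT, with medians of 4.58 and 3.11, so this difference came from FR replicates 4 and 5.

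BFAR was low in every VIM library and present in most of the others. In VIM its normalized counts were 4.30, 8.15, 8.43 and 9.78 in replicates 1 to 4. In VMAT they were 1360, 35.2 and 237 in replicates 1 to 3. In FR they were 276, 189, 6.72, 343 and 129 in replicates 1 to 5. All VIM libraries were below all VMAT libraries, and FR replicate 3 was the only FR library that fell within the VIM range. The highest and the lowest BFAR value of VMAT were in replicates 1 and 2, the libraries of lowest and highest depth, and the part of depth was not tested. The VIM libraries held 5 to 10 reads each, whereas 165 to 680 reads were counted in the 4 high FR libraries. The mean was 189 ± 130.5 in FR (SD, n = 5), 7.67 ± 2.36 in VIM (SD, n = 4) and 544 ± 714 in VMAT (SD, n = 3). The FR mean was 24.6 times that of VIM, and the VMAT mean was 71 times that of VIM.

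**Figure D1:**
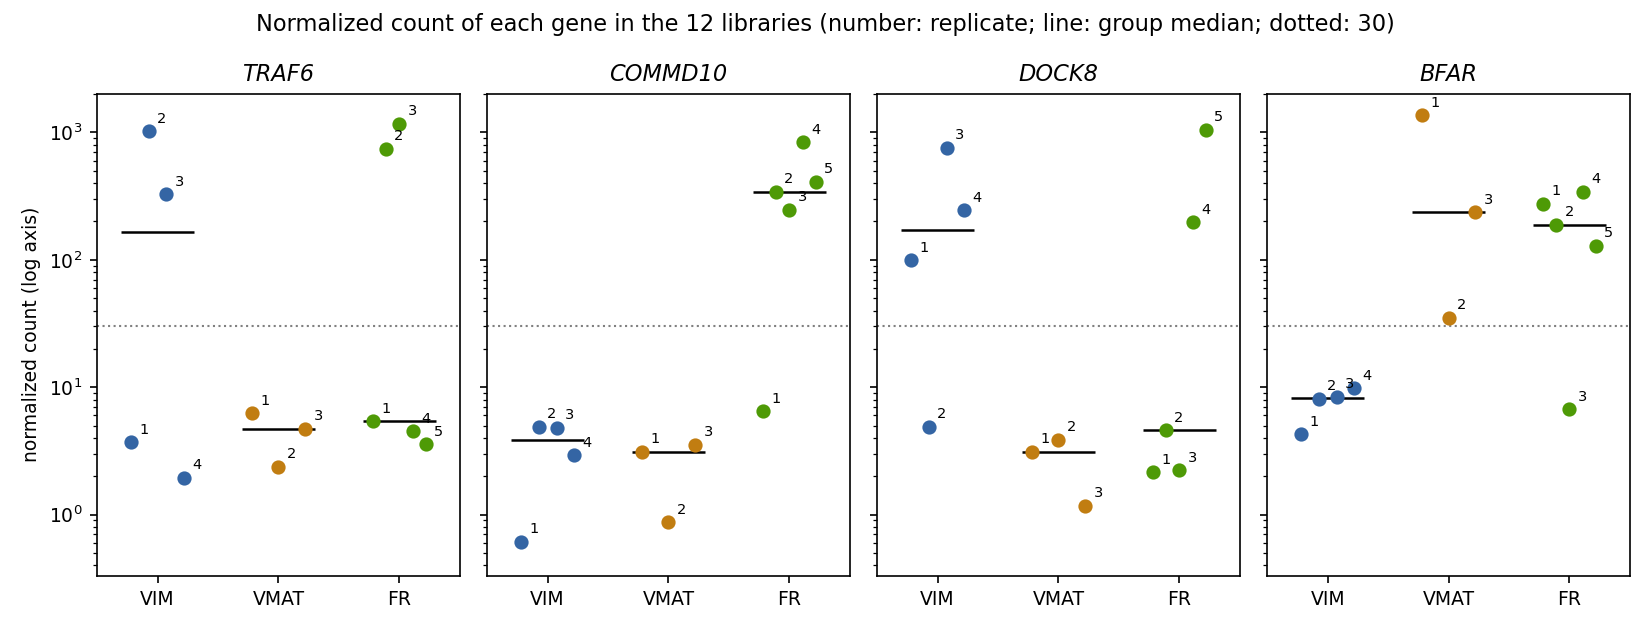
Normalized counts (log axis) of TRAF6, COMMD10, DOCK8 and BFAR in each library of VIM, VMAT and FR. Each point is a library with its replicate number, horizontal lines are group medians, and the dotted line is a normalized count of 30. No point lies between 10 and 30.

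The 48 values of the 4 genes fell into 2 ranges with a gap between them. A total of 28 values were at a normalized count of 10 or less, 20 were above 30, and 0 lay in between. None of the 48 was at 0 reads. Among genes within 2-fold of the mean of each of the 4, 47.1% to 72.3% had reads in all 12 libraries. The lowest high library exceeded the highest low library 52.9-fold for TRAF6, 38.2-fold for COMMD10, 20.3-fold for DOCK8 and 3.60-fold for BFAR. The reads of a low library were 0.0541% to 0.516% of the reads of TRAF6 in all other libraries. This share was 0.0333% to 0.233% for COMMD10, 0.0339% to 1.06% for DOCK8 and 0.224% to 0.538% for BFAR. For low values of the genes within 2-fold of these means, the median share was 0.0905% to 0.0932%. In the low range the counts are too few to rank libraries or groups, and a difference there was not detectable at this depth.

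The combination of the 4 genes above a normalized count of 30 varied between libraries. The 3 VMAT libraries held BFAR alone. In VIM, replicates 1 and 4 held DOCK8, replicate 2 held TRAF6, and replicate 3 held both. In FR, replicate 1 held BFAR alone, replicate 2 held TRAF6, COMMD10 and BFAR, and replicate 3 held TRAF6 and COMMD10. FR replicates 4 and 5 held COMMD10, DOCK8 and BFAR. Thus 0 libraries held all 4 genes, and no VIM or VMAT library held more than 2. Over the 12 libraries, Pearson's r of log2 values between 2 of these genes ran from -0.364 (TRAF6 and BFAR) to 0.291 (TRAF6 and COMMD10). These correlations are descriptions over libraries that share depth and group.

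The log2 fold changes were taken from limma on log2 of the normalized count plus 1, first group over second, which understates the change of low genes. In VIM vs. FR the log2 fold change was 0.12 (SE 2.33) for TRAF6, -5.60 (SE 2.03) for COMMD10, 1.98 (SE 2.16) for DOCK8 and -3.75 (SE 1.95) for BFAR. COMMD10 and BFAR were thus lower after vitrification of immature oocytes, and the standard errors of TRAF6 and DOCK8 exceeded their estimates. In VMAT vs. FR the values were -3.04 (SE 2.57) for TRAF6, -5.83 (SE 2.16) for COMMD10, -2.88 (SE 2.63) for DOCK8 and 1.01 (SE 1.68) for BFAR. COMMD10 again had the largest estimate of the 4, and both comparisons share the FR samples. In VIM vs. VMAT the values were 3.16 (SE 2.88) for TRAF6, 4.87 (SE 2.75) for DOCK8 and -4.76 (SE 2.57) for BFAR. DOCK8 was thus on the side of the immature and BFAR on the side of the mature vitrified oocytes. For COMMD10 the value was 0.23 (SE 1.81), but it rests on 1 to 7 reads in each library of both groups and no direction is read from it.

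**Figure D2:**
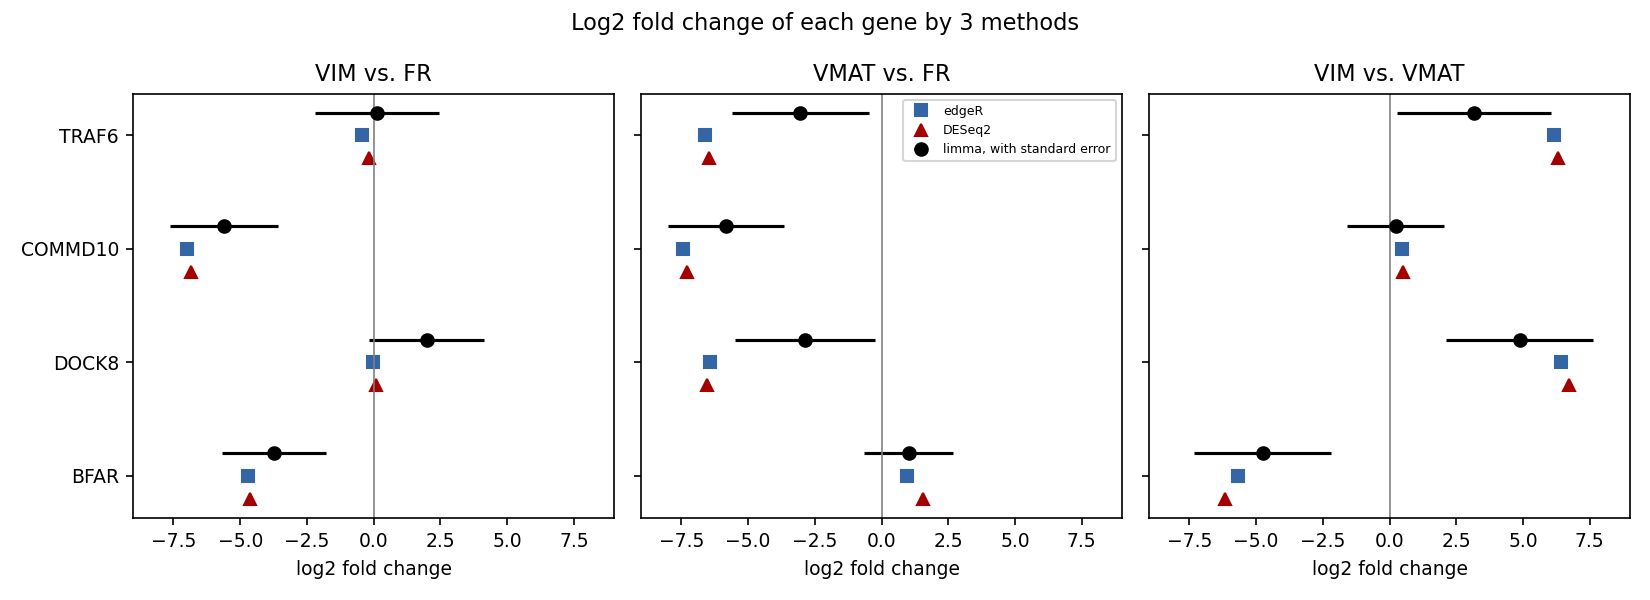
Log2 fold change (first group over second) of the 4 genes in the 3 comparisons, by limma with its standard error (circles and bars), edgeR (squares) and DESeq2 (triangles). For TRAF6 and DOCK8 in VMAT vs. FR, limma gave -3.04 and -2.88, whereas edgeR and DESeq2 gave values between -6.42 and -6.61.

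The size of the fold change depended on whether logs or counts were averaged. For TRAF6 in VMAT vs. FR, edgeR gave -6.61 and DESeq2 -6.47 on the reads recovered from the normalized counts. DOCK8 in the same comparison was at -6.42 and -6.54. Both genes were high in only 2 of 5 FR libraries, and these tools compare mean counts, which such libraries set. With COMMD10, high in 4 of 5 FR libraries, the methods stood closer together, at -6.99 (edgeR) and -6.84 (DESeq2) in VIM vs. FR.

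Read against all genes, limma called 0 genes DE in each comparison (absolute log2 fold change of 1 or more and Benjamini-Hochberg adjusted p not above 0.05). In VIM vs. FR, 278 of 7351 genes (3.78%) had an unadjusted p under 0.05. The same held for 301 of 8305 genes (3.62%) in VMAT vs. FR, and for 227 of 7627 (2.98%) when VIM was set against VMAT. At the same thresholds edgeR called 0, 1 and 1 genes in these comparisons, with 1237 genes of VIM vs. FR at an unadjusted p under 0.05. DESeq2 called 505 genes in VIM vs. FR, which is 6.87% of those tested, and COMMD10 and BFAR were among them. It called 354 genes in VMAT vs. FR (4.26%), with TRAF6, COMMD10 and DOCK8 included. It called 295 genes in VIM vs. VMAT (3.87%), with TRAF6, DOCK8 and BFAR included. These calls follow from how the 4 genes were chosen and are no further evidence.

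Separation of whole groups was counted over all genes. With 3 to 5 libraries per group some genes separate by chance, and an excess over that was not tested. In VIM vs. FR, 47 genes had every VIM library below every FR library, 0.639% of those tested, COMMD10 among them. In VMAT vs. FR there were 102 such genes (1.23%), again with COMMD10. In VIM vs. VMAT, 212 genes (2.78%) had every VIM library below every VMAT library, BFAR included, and 131 genes (1.72%) had every VIM library above, DOCK8 included. For DOCK8 this rested on the scaling, since relative to the total reads of each library VIM replicate 2 lay below VMAT replicate 2. TRAF6 separated no pair of groups. A larger absolute log2 fold change than that of COMMD10 was found for 0.190% of genes with VIM against FR, and for 0.241% with VMAT against FR. In VMAT vs. FR this share was 9.87% for TRAF6, 11.5% for DOCK8 and 55.4% for BFAR. In VIM vs. FR it was 93.3% for TRAF6, 25.3% for DOCK8 and 4.09% for BFAR. The genes were chosen on these comparisons, so their separations and ranks are descriptions and no further evidence.

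The mixture of low and high libraries within a group was common to genes at these levels. Genes whose mean over the 12 libraries was within 2-fold of that of the named gene numbered 1875 for TRAF6, 2255 for COMMD10, 2115 for DOCK8 and 2046 for BFAR. Of them, 96.2%, 99%, 98.1% and 97.9% had libraries on both sides of a normalized count of 30 within at least 1 group. The median gene at the level of TRAF6 exceeded 30 in 8 libraries, against 4 for TRAF6 itself. For COMMD10 the figures were 5 and 4 libraries, for DOCK8 6 and 5, and for BFAR 7 and 7. Values between 10 and 30 made up 6.58% of all values of the genes at the level of TRAF6 and 6% to 6.49% at the other levels. A group with no library above 30 was less usual. At the level of BFAR, 8.16% of genes had none in VIM. At the levels of TRAF6 and DOCK8, 3.41% and 7.66% had none in VMAT. At the level of COMMD10, 26 genes, or 1.15%, had none in the 7 vitrified libraries.

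**Figure D3:**
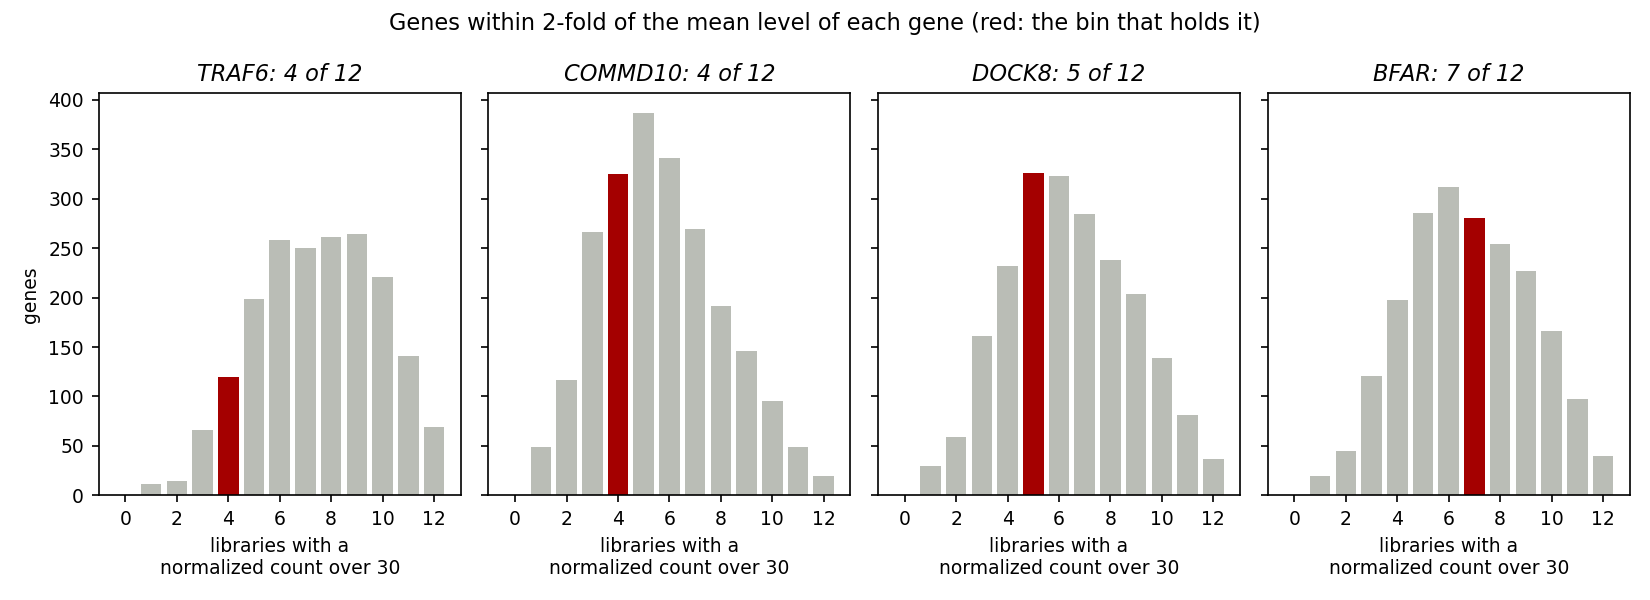
Number of genes (vertical axis) by how many of the 12 libraries exceed a normalized count of 30 (horizontal axis), among genes within 2-fold of the mean of TRAF6, COMMD10, DOCK8 or BFAR. The red bar is the number of libraries of the named gene (4, 4, 5 and 7), and all 4 lie within the spread of the genes of similar level.

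The within-group spread showed the same contrast between steady and mixed groups. The SD of log2 values of TRAF6 was 4.27 in VIM and 4.08 in FR but 0.56 in VMAT. For comparison, the median SD of genes at its level was 3.01 in VIM, 2.93 in FR and 2.79 in VMAT. DOCK8 had an SD of 3 in VIM, 3.88 in FR and 0.61 in VMAT. COMMD10 had an SD of 0.88 in VIM, 0.70 in VMAT and 2.67 in FR. BFAR had its smallest SD in VIM, at 0.45, against 2.62 in VMAT and 2.23 in FR. The small spreads belong to the groups in which every library was in the low range.

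The genes with the most similar pattern were sought among 2566 genes with a name, by Pearson's r of log2 values over the 12 libraries. For TRAF6 they were SEPHS1, of the selenophosphate synthetase family (r = 0.80), ARHGAP26, a GTPase activating protein (r = 0.80), and ESPL1, the separase that cleaves cohesin (r = 0.77). TRAF6 and ARHGAP26 shared their high libraries in VIM and FR, but ARHGAP26 was also raised in VMAT replicates 2 and 3. For COMMD10 they were CDT1, which licenses replication origins (r = 0.85), CLIC4, a chloride intracellular channel protein (r = 0.80), and WBP2, a WW domain binding protein (r = 0.78). For DOCK8 they were CCT8, a subunit of the cytosolic chaperonin (r = 0.86), ACVR1B, an activin receptor (r = 0.86), and PCDH19, a protocadherin (r = 0.84). All 3 were above a normalized count of 30 in VMAT replicate 2, where DOCK8 was not. For BFAR they were ZNF638, a zinc finger protein (r = 0.82), CALR, the calcium-binding chaperone calreticulin of the endoplasmic reticulum (r = 0.82), and LARP1, an RNA-binding protein (r = 0.81). These genes were the most similar of many candidates over libraries that share depth, and the correlations are given as descriptions. Among 9027 identifiers with or without a name, 9 to 13 had a higher r with TRAF6 than these genes. The counts were 1 to 15 for COMMD10, 2 to 5 for DOCK8 and 2 to 4 for BFAR. The study called ZNF638 DE in the same comparisons as BFAR. With Spearman's rank correlation, 0 of the 3 genes stayed among the closest 3 for TRAF6 and for COMMD10, and 1 of 3 did for DOCK8 and for BFAR.

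**Figure D4:**
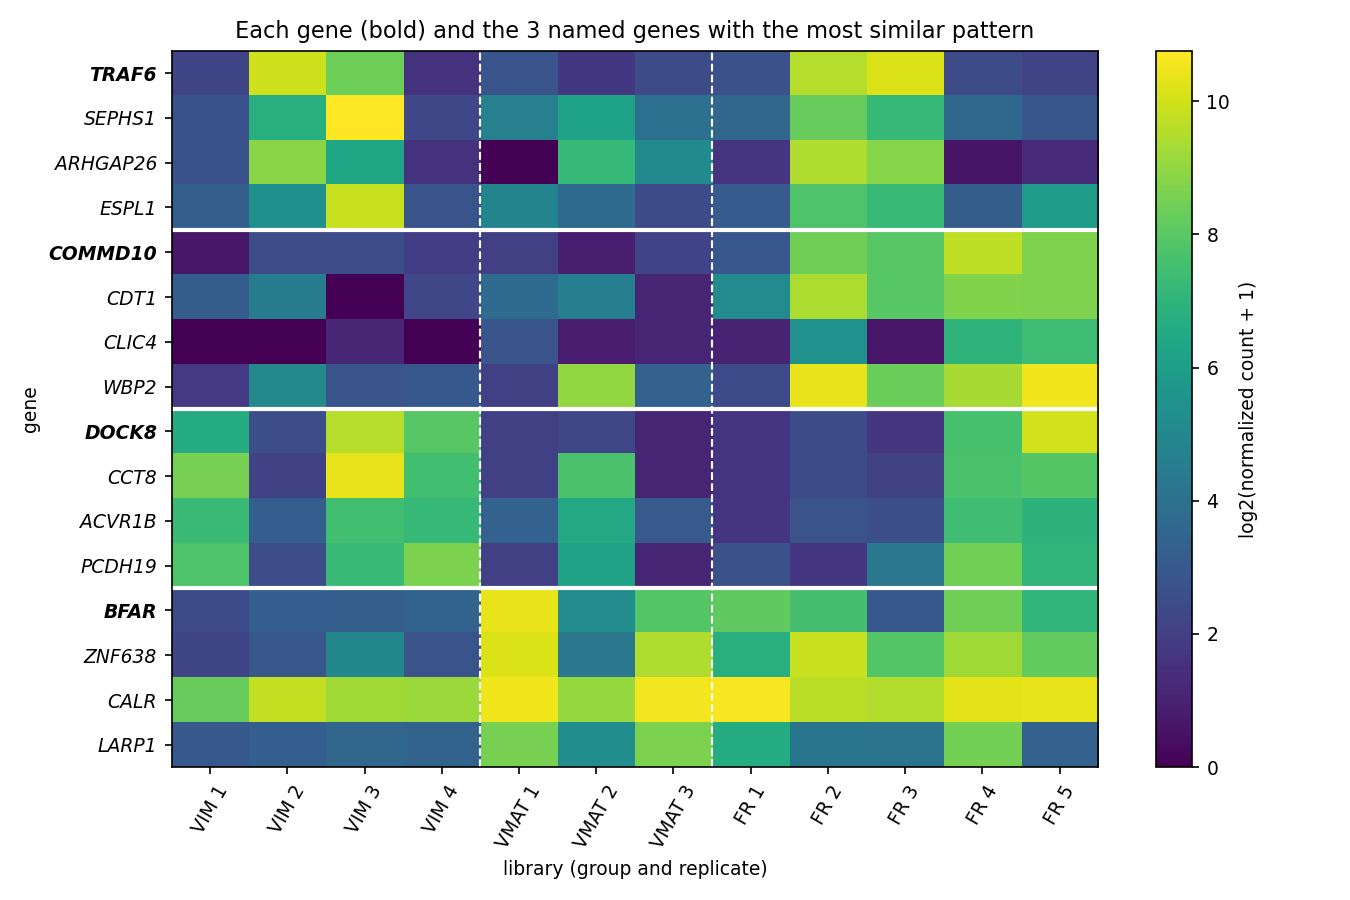
Log2 of the normalized count plus 1 (colour) of TRAF6, COMMD10, DOCK8 and BFAR in the 12 libraries (columns). Below each is the set of 3 genes most similar to it among genes with a name (rows). Dashed lines separate VIM, VMAT and FR, and CALR is high in all 12 libraries, unlike BFAR.

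The pathways around the 4 genes were read from 8 lists with 147 genes, of which 29 could be identified by name and all 29 were tested. Names came from shortened tables that are partly sorted by fold change, so the named genes are shifted in direction. Their median log2 fold change was -0.27 in VIM vs. FR, against 0.00 for genes without a name. In VMAT vs. FR these medians were -0.31 and 0.22, and with VIM against VMAT they were 0.02 and -0.17. No direction is therefore read from the lists. With limma, 0 of the 29 genes were DE in any comparison. At an unadjusted p under 0.05, 1 gene was higher and 0 were lower in VIM vs. FR, 1 was higher and 1 lower in VMAT vs. FR, and 0 passed in VIM vs. VMAT. Over all genes the corresponding shares were the 3.78%, 3.62% and 2.98% given above. The median log2 fold change of the 29 genes was 0.09, -0.38 and 0.24 in the 3 comparisons, beside -0.12, 0.01 and -0.08 for all genes tested.

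In the relay to and from TRAF6, identified genes were the receptor-proximal kinase IRAK2, the TRAF-binding proteins TANK and TRAFD1, and the ubiquitin genes UBE2N, UBE2V1, CYLD and SPATA2. TANK was among the steadier ones within groups, at 3079 ± 1524 in FR (SD, n = 5), 2996 ± 385 in VIM (SD, n = 4) and 1470 ± 148 in VMAT (SD, n = 3). Its VMAT libraries, at 1312 to 1606, lay below all VIM (2549 to 3446) and all FR libraries (1898 to 5209). Of all genes tested, 1.72% had every VIM library above every VMAT library, and 1.23% had every VMAT library below every FR library. UBE2N, the partner enzyme of TRAF6, was at 307 ± 302 in FR (SD, n = 5), 578 ± 672 in VIM (SD, n = 4) and 572 ± 339 in VMAT (SD, n = 3). CYLD, which removes K63-linked chains, was at 541 ± 366 in FR (SD, n = 5), 571 ± 129.7 in VIM (SD, n = 4) and 1355 ± 1952 in VMAT (SD, n = 3). The NF-κB subunit REL, the inhibitor NFKBIA and the adaptor BCL10 were also detected, and none of the 3 passed a test in any comparison. None of the genes of these 4 lists had an unadjusted p under 0.05 with limma.

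Among COMMD10 relatives, COMMD2 and COMMD8 of the same family and CCDC93 and VPS26C of the Commander complex were identified. COMMD2 had a normalized count of 170.7, 9.78, 4.82 and 3.91 in VIM replicates 1 to 4. In VMAT it was at 6.22, 59.99 and 193 in replicates 1 to 3. In FR it was at 171, 1.14, 187, 208 and 278 in replicates 1 to 5. Unlike COMMD10, COMMD2 was thus high in 1 VIM and 2 VMAT libraries. COMMD8 was at 526.1, 3.26, 4.82 and 4.89 in VIM, at 6.22, 132 and 1.18 in VMAT and at 1051, 2.29, 269, 221 and 233 in FR. It was thus high in 4 of 5 FR libraries, as COMMD10 was, but also in 1 library of each vitrified group. CCDC93 was at 316 ± 259 in FR (SD, n = 5), 220.5 ± 184 in VIM (SD, n = 4) and 350 ± 375 in VMAT (SD, n = 3), with log2 fold changes between -0.56 and 0.27.

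Of the DOCK8 partners, CDC42, the GTPase that DOCK8 loads, was abundant in every group. It was at 3524 ± 1004 in FR (SD, n = 5), 4024 ± 547 in VIM (SD, n = 4) and 3874 ± 2886 in VMAT (SD, n = 3). The log2 fold change of CDC42 relative to FR was 0.22 (SE 0.39) for VIM and -0.08 (SE 0.63) for VMAT. RHOA, a GTPase of actin stress fibres, was at 301 to 1505 in VIM and at 11.4 to 612 in FR. For RHOA, limma gave a log2 fold change of 3.22 (SE 1.41) in VIM vs. FR, with an adjusted p of 0.902 from limma. RAC1, a GTPase of membrane ruffles, was chosen after its values were seen, because it was the only list gene that DESeq2 called DE. In VIM vs. FR its log2 fold change was -6.62 with DESeq2 (adjusted p = 0.00502) and -3.98 with limma (adjusted p = 0.902). RAC1 had a normalized count of 0, 3.26, 2.41 and 1.96 in VIM and of 2.16, 602, 1.68, 147 and 143 in FR. It was thus high in 3 of 5 FR libraries, and the groups overlapped.

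In the apoptosis list, which bears on BFAR, 8 of 32 genes were identified. BIRC3, an inhibitor of apoptosis that also ubiquitinates components of NF-κB signalling, had normalized counts of 31.1, 109 and 8.25 in VMAT. In FR it was at 942, 265, 417, 256 and 199, so all VMAT libraries were below all FR libraries. Over all genes tested, 102 (1.23%) were separated in this way. Its log2 fold change in VMAT vs. FR was -3.46 (SE 1.57), with an adjusted p of 0.950 from limma and 0.125 from DESeq2. BCL2L11, which encodes the pro-apoptotic protein BIM, had a log2 fold change of 4.72 (SE 2.17) in VMAT vs. FR, with an adjusted p of 0.950 from limma. It is named beside BIRC3 because the 2 genes are the list genes that passed an unadjusted p of 0.05 there. The ubiquitin ligase SYVN1 of the endoplasmic reticulum, the compartment of BFAR, had no unadjusted p under 0.05. Of 23 partners of the 4 genes listed by their function, only UBE2N, CCDC93 and CDC42 were identified, and the other 20 were not analysed here.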

How the data were processed

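Pooled in vitro matured horse oocytes were sequenced with a 3′ kit with unique molecular identifiers (QIAseq UPX). According to the submitters' notes and the methods of the study, the authors trimmed reads (Trim Galore), mapped them to EquCab3.0 (STAR, SAMtools), processed identifiers (UMI-tools) and counted per gene (RSEM). The deposited signal is a normalized count, a gene's count divided by a DESeq2 size factor per sample, in 12 samples. After control of RNA amount and integrity, the authors left out pools of VIM and VMAT but none of FR. They then removed 1 further VMAT sample, which had low RNA integrity, the lowest concentration and few reads. The pools left out were thus all vitrified, and the part of RNA quality was not tested. All values (100.0%) were whole multiples of a step per sample within 0.001, so reads were recovered for edgeR, DESeq2 and depth.

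Each comparison used its own samples. A gene was tested when its value exceeded 0 in 4 or more samples (VIM vs. FR) or 3 or more (other comparisons). The test was limma (lmFit, eBayes with trend) on log2(normalized count + 1), with Benjamini-Hochberg adjustment over all genes tested. Alternatives were pseudocounts of 0.5 and 10, other filters, equal column totals, all 12 samples in 1 fit, no trend, a replicate block, edgeR, DESeq2 and each sample left out. Software was limma 3.58.1, edgeR 4.0.16, DESeq2 1.42.0 and Python 3.11.15. The tests were tested on simulated data of smaller spread than these libraries. This does not show how they perform at the spread seen here.

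The 4 genes and the gene lists were chosen with earlier results of these data known. Names came from the study's supplementary tables, which paired 2567 of 11425 identifiers with a unique symbol. RefSeq names of assembly TB-T2T served only to find neighbouring genes. Besides the 4 genes, the text names the 3 genes with a symbol that were most correlated with each. For each list and comparison it names the gene with the smallest limma p where its unadjusted p was under 0.05. It also names 23 fixed partners where identified, and a few list members as examples (IRAK2, TANK and others) chosen after their values were seen. Positions and sequences were not analysed here. The values of 1 gene of these lists are not reported here.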

Additional observations from a re-analysis of the deposited data

Results flagged for a closer look

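COMMD10 in FR replicate 1 stood apart from its group, with a normalized count of 6.47 (6 reads) against 247 to 839 in the other 4 FR libraries. BFAR in FR replicate 3 stood apart in the same way, with 6.72 (12 reads) against 129 to 343 in the other 4. Both were found with Dixon's criterion on log2 values, in which the gap to the nearest library took 0.742 and 0.743 of the range of the group. The criterion marks about 1 in 20 groups by chance when values spread evenly around a centre. These values fell into a low and a high range and had been used to choose the genes, so both libraries are given as a description and not as a test. FR replicate 1 held BFAR at 276 and FR replicate 3 held COMMD10 at 247, so neither library was low for both genes.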

How the results depend on the processing

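The number of DE genes moved from 0 in VIM vs. FR to 3 with no filter on low values, to 3 with eBayes without trend and to 505 with DESeq2, in VMAT vs. FR to 1 with edgeR and 354 with DESeq2, and in VIM vs. VMAT to 1 with edgeR and 295 with DESeq2. List genes at an unadjusted p under 0.05 numbered 1, 2 and 0 of 29 with limma and 2, 1 and 2 with DESeq2, beside 948 of 7351, 896 of 8305 and 845 of 7627 genes in all with DESeq2. In VMAT vs. FR, TRAF6 moved from -3.04 to -6.61 (edgeR) and -6.47 (DESeq2), and DOCK8 from -2.88 to -6.42 and -6.54. Of the 12 log2 fold changes, all kept their sign with either pseudocount and with equal column totals, 10 with edgeR and 11 with DESeq2. With each sample left out in turn, 0 genes were DE, and 89 of 96 log2 fold changes kept their sign. The exceptions were TRAF6 in VIM vs. FR (-1.36 to 1.45), BFAR in VMAT vs. FR, which became -0.28 without VMAT replicate 1, and COMMD10 in VIM vs. VMAT, which became -0.17 without VMAT replicate 2. TRAF6 in VMAT vs. FR was at -2.01 without FR replicate 2 and -1.85 without FR replicate 3, DOCK8 there was at -1.55 without FR replicate 5, and TRAF6 in VIM vs. VMAT was at 1.68 without VIM replicate 2. The sources used here do not say whether replicate numbers pair the samples. The deviations of same-numbered samples from their group means had correlations between -0.0305 and 0.0112. Given the spread between libraries, these values cannot decide it. The fit with a replicate block kept only replicate numbers found in both groups. It left out FR replicate 5 in VIM vs. FR and FR replicates 4 and 5 in VMAT vs. FR. VIM replicate 4 was left out in VIM vs. VMAT. With this block 0 genes were DE, and 11 of 12 log2 fold changes kept their sign. TRAF6 in VIM vs. FR became -0.68, the same value as without FR replicate 5 and no block. DOCK8 in VMAT vs. FR fell to -0.13, with its high FR libraries, replicates 4 and 5, left out. Pairing was not tested apart from these omissions. A floor of 3 reads limits statements on the low range of all 4 genes.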
